A study of Homo sapiens with 6 samples.

Results

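The aryl hydrocarbon receptor (AHR) genes and the genes of kynurenine metabolism were examined in control A431 cells (A431CT) and in A431 cells that lack Desmoglein-2 (Dsg2KO). The members are AHR, ARNT, AHRR, CYP1A1, CYP1B1, TIPARP, IDO1, AFMID, KMO and KYNU, and they were taken by gene symbol from the count table. Of these 10 symbols, 9 matched a row exactly, among 21462 genes in all. AHRR was carried by 2 rows with a suffix, AHRR_1 and AHRR_2, which are described apart from the counts of members. The group was chosen by the counts of KYNU, which were lower in Dsg2KO cells, so its values are given as a description with no test.

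RNA was sequenced from 3 A431CT libraries, with genotype WT in the labels, and 3 Dsg2KO libraries, with genotype DSG2 KO. A431 is a human epidermoid carcinoma line, and all libraries came from it, grown in DMEM with fetal bovine serum and no added AHR ligand or cytokine named in the labels. Both the control and the knockout cells came from CRISPR/Cas9 editing. DSG2 encodes Desmoglein-2, a cadherin of the desmosome. The sources used here do not say whether the knockout line is 1 clone, and a difference that arose while the line was made cannot be told apart from an effect of losing Dsg2.

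AHR is a transcription factor of the bHLH-PAS family that is held in the cytoplasm by chaperones until it binds a ligand. It then enters the nucleus, pairs with ARNT and binds DNA elements near genes such as CYP1A1, CYP1B1, TIPARP and AHRR, and the last 2 of these feed back to dampen the receptor. Kynurenine, which cells make from tryptophan, is itself a known AHR ligand, and KYNU is an enzyme that removes it. In skin, AHR is known for its part in barrier formation and in the response to light and pollutants.

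The libraries held between 12845719 and 16255692 counts, and each Dsg2KO library was deeper than each A431CT library. Levels are given as CPM, counts scaled to library size with TMM factors. The floor was set at 3 counts, or 0.183 to 0.236 CPM by library, and covers counting error only. DSG2 itself was at 16.1% of its A431CT level in Dsg2KO cells and lower in 3 of 3 libraries. Of 7 keratinocyte markers, KRT5, KRT17, TP63, EGFR, CDH1 and SFN were expressed in every library, whereas KRT14 had between 0 and 2 counts per library. By the adjusted p-value alone EGFR and CDH1 were higher in Dsg2KO cells and KRT5 and SFN lower, with SFN at -0.46 on the log2 scale (adjusted p = 2.90e-07, edgeR). The summed keratinocyte markers lay between 10150 and 10850 CPM in A431CT and between 10790 and 11160 CPM in Dsg2KO cells, most of it EGFR. The 6 leukocyte markers summed to between 3.38 and 4.57 CPM in A431CT and between 3.89 and 5.99 CPM in Dsg2KO cells, with CD3E at 0 counts throughout. The 6 stromal and endothelial markers summed to between 7.21 and 10.4 CPM in A431CT and between 14.0 and 14.2 CPM in Dsg2KO cells. PDGFRA and COL1A2 were at 0 counts in every library, while PECAM1 and CDH5 passed the test as higher in Dsg2KO cells, with log2 fold changes of 0.54 and 0.76. The part of these markers in the results below was not tested.

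The promoters of KYNU and of the AHR targets CYP1A1 and TIPARP are shown because KYNU carries the largest difference among the members, while CYP1A1 and TIPARP are classical targets with values on opposite sides of their control level. Each run is the 250 bases before the start site in RefSeq on GRCh38.p14, and capitals mark the core of the AHR-ARNT element, GCGTG, or its reverse complement CACGC. The windows are chr2:142877414-142877663 on the plus strand for KYNU, chr15:74725529-74725778 on the minus strand for CYP1A1 and chr3:156674340-156674589 on the plus strand for TIPARP.
KYNU: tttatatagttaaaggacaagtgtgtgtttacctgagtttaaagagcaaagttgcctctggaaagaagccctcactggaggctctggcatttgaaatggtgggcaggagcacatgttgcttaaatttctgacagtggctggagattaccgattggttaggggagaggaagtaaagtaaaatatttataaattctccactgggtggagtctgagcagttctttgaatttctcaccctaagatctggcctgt
CYP1A1: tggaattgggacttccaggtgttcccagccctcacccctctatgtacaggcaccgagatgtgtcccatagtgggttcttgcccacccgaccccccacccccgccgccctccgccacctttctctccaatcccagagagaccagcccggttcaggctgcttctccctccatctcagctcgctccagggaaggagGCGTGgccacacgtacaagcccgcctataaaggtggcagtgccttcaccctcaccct
TIPARP: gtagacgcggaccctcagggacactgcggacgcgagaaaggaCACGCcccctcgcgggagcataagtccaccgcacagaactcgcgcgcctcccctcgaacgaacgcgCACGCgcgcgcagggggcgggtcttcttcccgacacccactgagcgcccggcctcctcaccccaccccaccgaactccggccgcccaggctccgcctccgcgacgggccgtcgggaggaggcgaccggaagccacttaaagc
The KYNU window held 0 copies of the core, the CYP1A1 window 1 copy with 52 bases between it and the start, and this TIPARP window 2 copies on the other strand, 203 and 137 bases from the start. The other 2 TIPARP windows held 0 copies. Among the members, 8 of 10 had a window in the table, and 4 of these held the core in at least 1 window: AFMID, AHRR, CYP1A1 and TIPARP. The members without a window were CYP1B1 and IDO1, whose promoters were not read. The core is short and common, since it was found in 32.2% of all 35116 windows and in 53.0% of the 10035 tested genes with a window, so a match describes these letters only. Sequence beyond the 250 bases was not read, so 0 copies in a window does not exclude the core further away.

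All genes were compared between the 2 conditions with edgeR's quasi-likelihood test and Benjamini-Hochberg adjustment over the 12857 genes tested. A gene was called with an adjusted p-value below 0.05 together with a log2 fold change of 0.5 or more in size, and this called 6.03% of the genes tested, 2.99% as higher and 3.03% as lower. Of the 9 members found, 8 had enough counts to be tested, and IDO1 did not. Leaving out KYNU, 0 of the 7 others were called. The likelihood ratio test of edgeR and DESeq2 also called 0 of them, and 3 of 7 (42.9%) had an unadjusted p-value below 0.05 in the quasi-likelihood test, beside 39.5% of all genes tested. With the adjusted p-value alone, 2 of 7 (28.6%) passed, CYP1B1 and TIPARP, both higher in Dsg2KO cells, and this share was near the 29.6% of all tested genes that passed in the same way. For 3 of 7 (42.9%) the A431CT and Dsg2KO libraries had no overlap, beside 42.6% of all genes tested. The median log2 fold change of these 7 genes was -0.083, beside -0.0048 over all genes tested. These shares were close to those of all genes, and the values lay on both sides of 0.

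**Figure D1:**
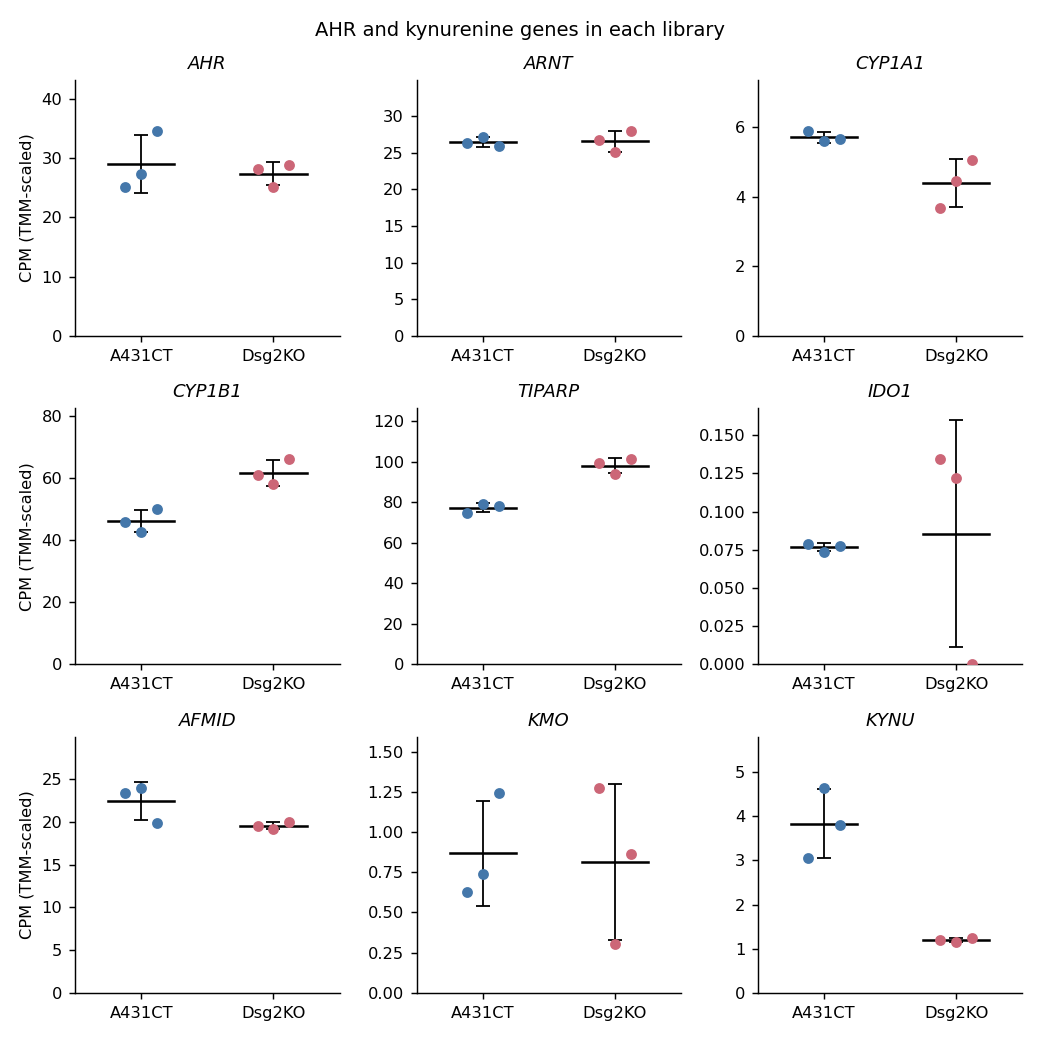
Level of the 9 members found by symbol, in TMM-scaled CPM, in each of 3 A431CT libraries (blue) and 3 Dsg2KO libraries (red); horizontal lines are means and bars are SD, and each panel has its own axis from 0. CYP1B1 and TIPARP were higher in all Dsg2KO libraries, CYP1A1 and KYNU lower, and AHR, ARNT, AFMID, KMO and IDO1 overlapped.

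The receptor and its partner stayed close to their control levels. AHR, on chromosome 7 of GRCh38 from 16916359 to 17346152, encodes the ligand-binding receptor. It was at 25.1, 27.3 and 34.6 CPM in the A431CT libraries, against 28.2, 25.1 and 28.8 CPM in Dsg2KO cells. The conditions overlapped, and A431CT replicate 3 was the highest library. The means were 29.0 ± 4.93 (SD, n = 3) and 27.4 ± 1.97 CPM (SD, n = 3), with a log2 fold change of -0.083 (SE, the standard error, 0.10, 95% interval -0.30 to 0.14, edgeR adjusted p = 0.598). Without A431CT replicate 3 the log2 fold change was 0.062, so its sign rested on 1 library.

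ARNT, on chromosome 1 from 150809713 to 150876708, encodes the nuclear partner that AHR shares with the hypoxia-inducible factors. Its levels were 26.4, 27.2 and 25.9 CPM in the A431CT libraries, against 26.7, 25.1 and 28.0 CPM in Dsg2KO cells. The conditions overlapped fully. The log2 fold change was 0.0043 (SE 0.07, 95% interval -0.15 to 0.16, edgeR adjusted p = 0.972), and the interval does not reach the minimum of 0.5 on either side.

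The complex around the receptor was read from a list of 19 genes, which included the chaperones HSP90AA1, HSP90AB1 and PTGES3 and the other bHLH-PAS factors. Of 15 tested, 1 (6.67%) was called higher and 0 lower, beside 6.03% of all genes tested called in either direction. The median log2 fold change was 0.0043. The gene called was NPAS2, a circadian bHLH-PAS factor, with counts of 42, 37 and 22 in the A431CT libraries, against 96, 98 and 86 in Dsg2KO cells. Its level rose from 2.58 ± 0.809 to 5.91 ± 0.566 CPM (SD, n = 3), with a log2 fold change of 1.19 (SE 0.24, edgeR adjusted p = 0.0013), and the conditions did not overlap. HSP90AA1, HSP90AB1 and PTGES3 had log2 fold changes of 0.0045, 0.072 and -0.042. SIM2, on chromosome 21, was at 0.45 (adjusted p = 0.0021, edgeR), also under the minimum, which it passed when A431CT replicate 3 was left out.

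Among the members that are AHR targets, the 2 with the highest counts were both higher in Dsg2KO cells by a modest amount. TIPARP, on chromosome 3 from 156673235 to 156706770, encodes a mono-ADP-ribosyltransferase that is induced by AHR and in turn restrains it. It was at 74.7, 79.1 and 78.2 CPM in the A431CT libraries, against 99.4, 94.0 and 101 CPM in Dsg2KO cells. All Dsg2KO libraries lay above all A431CT libraries. The mean went from 77.4 ± 2.32 to 98.2 ± 3.78 CPM (SD, n = 3), 1.27 times the control level, with a log2 fold change of 0.34 (SE 0.05, 95% interval 0.24 to 0.45, edgeR adjusted p = 9.03e-05). With any 1 library left out it lay between 0.32 and 0.38, so it stayed under the 0.5 minimum and below the adjusted p-value threshold in each of the alternatives, where adjusted p-values ranged from 3.05e-09 to 0.0011. The antisense gene TIPARP-AS1 overlaps 1212 bases of TIPARP in GENCODE, and reads of the 2 cannot be told apart without strand.

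CYP1B1, on chromosome 2 from 38066973 to 38109902, encodes a cytochrome P450 that oxidises polycyclic hydrocarbons and steroids. Its levels were 45.7, 42.7 and 49.97 CPM in the A431CT libraries, against 60.9, 58.1 and 66.0 CPM in Dsg2KO cells. The conditions did not overlap. The mean went from 46.1 ± 3.64 to 61.7 ± 4.04 CPM (SD, n = 3), 1.34 times the control level, with a log2 fold change of 0.42 (SE 0.07, 95% interval 0.27 to 0.56, edgeR adjusted p = 3.04e-04). The interval includes the minimum of 0.5, and the value lay between 0.37 and 0.48 with any 1 library left out. CYP1B1-AS1 and RMDN2 overlap CYP1B1 on the opposite strand. RMDN2 had between 34 and 66 counts per library, few beside the 580 to 1069 of CYP1B1, and a log2 fold change of 0.12 (adjusted p = 0.775, edgeR), while CYP1B1-AS1 was not analysed here.

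CYP1A1, on chromosome 15 from 74719542 to 74725536, encodes the cytochrome P450 that is most often used as a readout of AHR activity. It was at 5.89, 5.60 and 5.66 CPM in the A431CT libraries, against 3.69, 4.46 and 5.07 CPM in Dsg2KO cells. All 3 Dsg2KO libraries lay below the A431CT libraries, but they were spread over a wider range. The means were 5.72 ± 0.156 and 4.41 ± 0.691 CPM (SD, n = 3), with a log2 fold change of -0.37 (SE 0.19, 95% interval -0.77 to 0.02, edgeR adjusted p = 0.150). The difference did not pass the test, and over the alternatives its adjusted p-value ranged from 0.108 to 0.394. CYP1A1 and CYP1B1, which share the receptor as a regulator, thus had values on opposite sides of 0. The difference between their 2 fold changes was not tested.

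AHRR encodes a repressor that competes with AHR for ARNT. The row AHRR_1 was at 2.28, 3.09 and 3.02 CPM in the A431CT libraries, against 3.55, 2.20 and 3.95 CPM in Dsg2KO cells. The conditions overlapped, and the log2 fold change was 0.21 (SE 0.27, edgeR adjusted p = 0.616). The row AHRR_2 was at 0 counts in every library. GENCODE also holds a readthrough gene, PDCD6-AHRR, over the whole of AHRR, and which model each row stands for is not given in the sources used here.

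The wider list of AHR target genes had 13 genes, of which 10 were tested. Of these, 0 were called higher and 1 (10%) lower, beside 6.03% of all genes tested called in either direction. The median log2 fold change was -0.16. The lower gene was SERPINB2, a serine protease inhibitor of keratinocytes, at 16, 19 and 33 counts in A431CT and 7, 18 and 4 counts in Dsg2KO cells. Its value was -1.497 on the log2 scale (SE 0.49, edgeR adjusted p = 0.0281). It reached the minimum count in every library only in A431CT, where it is high, so its entry into the test was not independent of the difference. The call was lost without A431CT replicate 3 (-1.12, adjusted p = 0.150), Dsg2KO replicate 1 (-1.35, adjusted p = 0.106) or Dsg2KO replicate 3 (-1.12, adjusted p = 0.120), while without Dsg2KO replicate 2 the value was -2.26 (adjusted p = 0.0092). NQO1, a quinone reductase that AHR shares with NRF2, was at 287 ± 6.28 CPM in A431CT and 237 ± 5.58 CPM in Dsg2KO cells (SD, n = 3). Its log2 fold change of -0.28 (adjusted p = 6.11e-05, edgeR) did not reach the minimum. By the adjusted p-value alone 3 of the 10 tested genes of this list were higher and 2 lower, beside 14.3% and 15.3% of all genes tested.

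**Figure D2:**
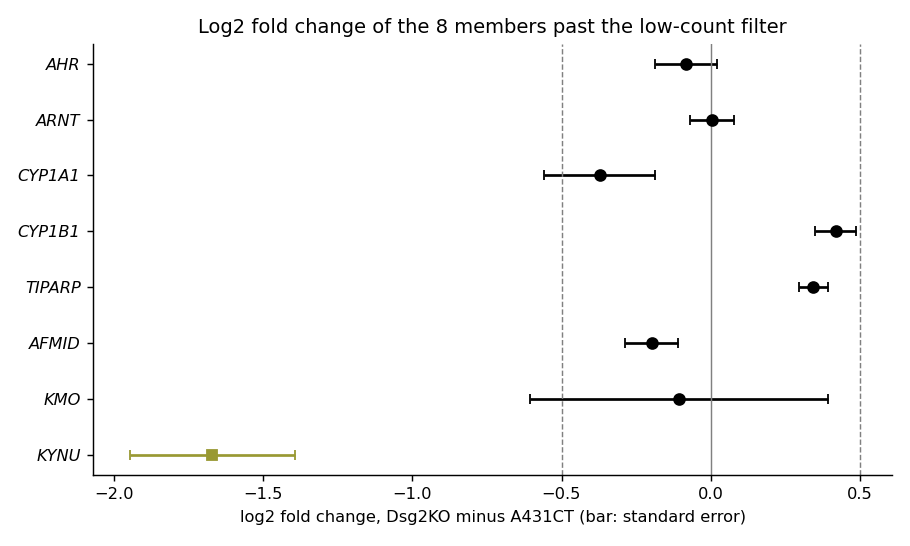
Log2 fold change (Dsg2KO minus A431CT) of the 8 members past the low-count filter, as edgeR's estimate with its standard error; dashed lines mark the minimum of 0.5 in either direction. KYNU (square, chosen for its fall and not tested) was at -1.67, and the 7 others lay between -0.37 and 0.42.

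The kynurenine pathway breaks tryptophan down in steps, and it was followed in that order. The first step is carried out by IDO1, an enzyme known to be induced by interferon γ, or by IDO2 or TDO2. IDO1, on chromosome 8 from 39902275 to 39928790, had 1, 1 and 1 counts in A431CT and 2, 2 and 0 counts in Dsg2KO cells. All of these lie under the floor, so no fold is given, and a difference was not detectable at this depth. TDO2 and IDO2 had 0 counts in every library, which allows a level of up to 0.183 to 0.236 CPM. The mRNA of each enzyme for the first step was therefore at or under the floor in both conditions.

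AFMID, on chromosome 17 from 78187358 to 78207702, encodes the formamidase that releases kynurenine. It was at 23.3, 23.9 and 19.8 CPM in the A431CT libraries, against 19.4, 19.1 and 19.95 CPM in Dsg2KO cells. A431CT replicate 3 fell within the Dsg2KO range, and the 2 other A431CT libraries lay above it. The log2 fold change was -0.20 (SE 0.09, 95% interval -0.39 to -0.0086, edgeR adjusted p = 0.110), which did not pass. Without A431CT replicate 3 it was -0.28, with an adjusted p-value of 0.0312 from edgeR.

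KMO, on chromosome 1 from 241532134 to 241595642, encodes the monooxygenase that turns kynurenine into 3-hydroxykynurenine. It had 8, 10 and 16 counts in the A431CT libraries, against 19, 5 and 14 in Dsg2KO cells. The conditions overlapped, and the highest and the lowest library were both Dsg2KO. The log2 fold change was -0.11 (SE 0.50, 95% interval -1.17 to 0.96, edgeR adjusted p = 0.8997), and the interval is wide on both sides of 0. KMO overlaps 5541 bases of OPN3 on the opposite strand, and OPN3, with 189 to 269 counts per library, had a log2 fold change of -0.071 (adjusted p = 0.652, edgeR).

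KYNU, on chromosome 2 from 142877657 to 143055833, encodes kynureninase, which cleaves kynurenine to anthranilic acid and 3-hydroxykynurenine to 3-hydroxyanthranilic acid. It had 39, 63 and 49 counts in the A431CT libraries, against 18, 19 and 20 counts in the deeper Dsg2KO libraries. As CPM this was 3.07, 4.64 and 3.80 in A431CT and 1.21, 1.16 and 1.24 in Dsg2KO cells. The A431CT libraries were spread widely, while the Dsg2KO libraries lay close together and all below them. The mean went from 3.83 ± 0.789 to 1.20 ± 0.0374 CPM (SD, n = 3), which left 31.3% of the control level. The log2 fold change was -1.67 (SE 0.28), and with any 1 library left out it lay between -1.81 and -1.51. Of the 12857 genes tested, 42 had a lower log2 fold change. In bulk RNA, fewer cells that express KYNU and less KYNU RNA per cell cannot be told apart.

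The genes around KYNU on chromosome 2 were read for comparison. Of the 20 nearest tested genes, with starts from 134.1 to 151.2 Mb, 0 were called in either direction, beside 6.03% of all genes tested. Their log2 fold changes lay between -0.48 and 0.69, the latter for ACMSD of the kynurenine list, with a median of 0.022. The same measure around CYP1B1 gave a median of 0.083, around TIPARP 0.012 and around CYP1A1 0.066. For AHR, ARNT, AFMID and KMO the neighbouring medians lay between -0.049 and 0.035.

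After KYNU, the genes HAAO, QPRT and ACMSD were sparsely expressed. Of the aminotransferases, KYAT3 and GOT2 had means of 90.1 and 234 CPM in A431CT, and KYAT1 and AADAT had 2.76 and 1.56 CPM. HAAO and QPRT, which lead on to quinolinic acid and NAD, had at most 6 and 4 counts per library and were not tested. ACMSD, which diverts the pathway away from quinolinic acid, had 19, 18 and 18 counts in A431CT and 32, 47 and 29 counts in Dsg2KO cells. Its log2 fold change of 0.69 (SE 0.30, edgeR adjusted p = 0.0996) was the highest of the list and did not pass. The aminotransferases KYAT1, KYAT3, AADAT and GOT2, which can turn kynurenine into kynurenic acid, had log2 fold changes of -0.32, -0.022, 0.28 and 0.097, and none of these 4 passed the adjusted p-value threshold. KYAT3 shares 13498 bases with RBMXL1 on the same strand, so its counts are uncertain where reads could be split between them. Of the 13 genes of the kynurenine list, 8 were tested. Apart from KYNU 0 of the 7 others were called, beside 6.03% of all genes tested. The median log2 fold change of these 7 was -0.022.

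**Figure D3:**
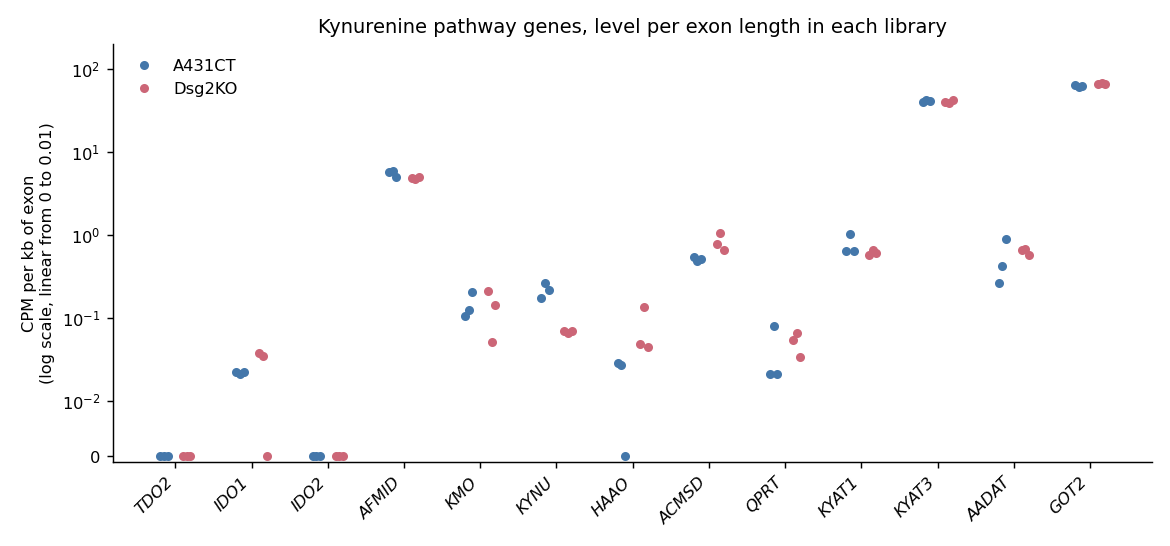
Level of the 13 kynurenine pathway genes in each library, as TMM-scaled CPM per kb of annotated exon, on a log axis that is linear from 0 to 0.01; blue is A431CT and red is Dsg2KO. KYAT3 and GOT2 were the highest in both conditions, and TDO2 and IDO2 were at 0. KYNU, which was chosen for its fall, had the log2 fold change of largest size among the 8 genes past the low-count filter.

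Per kb of exon, the members spanned a wide range. In A431CT cells TIPARP was highest at 16.1 ± 0.484 CPM per kb, followed by CYP1B1 at 7.66 ± 0.604, AFMID at 5.58 ± 0.554, ARNT at 4.11 ± 0.102, AHR at 3.60 ± 0.613 and CYP1A1 at 1.70 ± 0.0466 (SD, n = 3). KYNU and KMO followed at 0.220 ± 0.0452 and 0.146 ± 0.0548 CPM per kb. ARNT and AHR overlapped in their libraries, and so did KYNU and KMO, so the order within these 2 pairs is not settled. In Dsg2KO cells the order was the same except that KMO, at 0.137 ± 0.0818 CPM per kb, had a higher mean than KYNU at 0.0689 ± 0.0021, with overlapping libraries. Lengths matter here. With the length of the canonical transcript in place of the union of exons, AFMID was at 13.3 CPM per kb in A431CT cells, above CYP1B1 at 8.84, and KYNU, with an annotated transcript of 15.15 kb, was at 0.253. This length was chosen as an alternative after the data were seen. Both lengths of KYNU are long, with 17.44 kb for the union of exons, so the alternative could move its level only a little. A shorter transcript would give KYNU a higher level per kb. Which transcript the reads came from is not given, so the low rank of KYNU rests on these lengths.

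Genes that supply or compete for tryptophan, and genes that make NAD, were read from 2 further lists. Of 6 tested genes of tryptophan transport and use, 0 were called in the quasi-likelihood test, beside 6.03% of all genes tested. Their log2 fold changes lay between -0.017 and 0.45, with a median of 0.21. The list's count depended on IL4I1, a secreted amino acid oxidase that makes AHR ligands from tryptophan, which had too few counts for the main filter. It had 0, 2 and 3 counts in the A431CT libraries and 7, 16 and 16 in the Dsg2KO libraries, all of the latter higher. Fitted by edgeR without the low-count filter, IL4I1 was at 2.61 on the log2 scale (adjusted p = 0.0138), and DESeq2 gave 2.68 (adjusted p = 0.0362), both past the thresholds. With 1 library left out it lay between 2.07 and 3.29 in the fits that tested it, the highest without A431CT replicate 3. There it passed the filter only through the Dsg2KO libraries, where it is high. In every fit its A431CT counts were at or under the floor, and it was named after its values were seen. None of the calls of IL4I1 is therefore support. The ratio of summed counts, scaled to library size, was 6.44 (exact binomial 95% interval 2.54 to 20.9, counting error only). It describes these counts only. Among the 6 tested genes the largest values were 0.45 for SLC16A10, an aromatic amino acid transporter (adjusted p = 0.0782, edgeR; 0.65 and 0.0189 without A431CT replicate 3), and 0.40 for SLC7A8, a neutral amino acid transporter (adjusted p = 0.0847, edgeR). SLC7A5, the transporter that brings in tryptophan and kynurenine and a known AHR target, was at 2194 ± 149 CPM in A431CT and 2482 ± 57.0 CPM in Dsg2KO cells (SD, n = 3). Its log2 fold change of 0.18 (adjusted p = 0.0029, edgeR) was under the minimum. WARS1, the cytoplasmic tryptophanyl-tRNA synthetase, is induced by interferon γ together with IDO1 in many cells, and here it was at 0.021 (adjusted p = 0.774, edgeR). WARS1 alone does not measure that response, which the paper reports among its enriched gene sets in Dsg2KO cells.

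In the NAD list, 9 genes were tested, 1 (11.1%) was called higher and 0 lower, beside 6.03% of all genes tested called in either direction. The median log2 fold change was 0.087. The called gene was NMNAT2, an adenylyltransferase that completes NAD, at 83, 99 and 95 counts in A431CT and 144, 172 and 198 counts in Dsg2KO cells. It rose from 7.06 ± 0.465 to 10.8 ± 1.31 CPM (SD, n = 3), with a log2 fold change of 0.61 (SE 0.14, edgeR adjusted p = 0.0040), higher in 3 of 3 libraries. Its nuclear counterpart NMNAT1 had a log2 fold change of -0.39 (adjusted p = 0.0053, edgeR), and NADK, the NAD kinase, one of -0.30 (adjusted p = 1.64e-04, edgeR), both under the minimum. NADK2, the mitochondrial NAD kinase, lay on the other side at 0.26 (adjusted p = 0.0033, edgeR), also under it. NMNAT1 and NADK both lie on chromosome 1. SLC35E2A and GNB1, on either side of NADK there, had log2 fold changes of -0.31 and -0.34, near that of NADK itself. The part of the surrounding stretch of chromosome in the values of NADK and NMNAT1 was not tested. By the adjusted p-value alone 2 of the 9 tested genes of this list were higher and 2 lower, beside 14.3% and 15.3% of all genes tested.

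**Figure D4:**
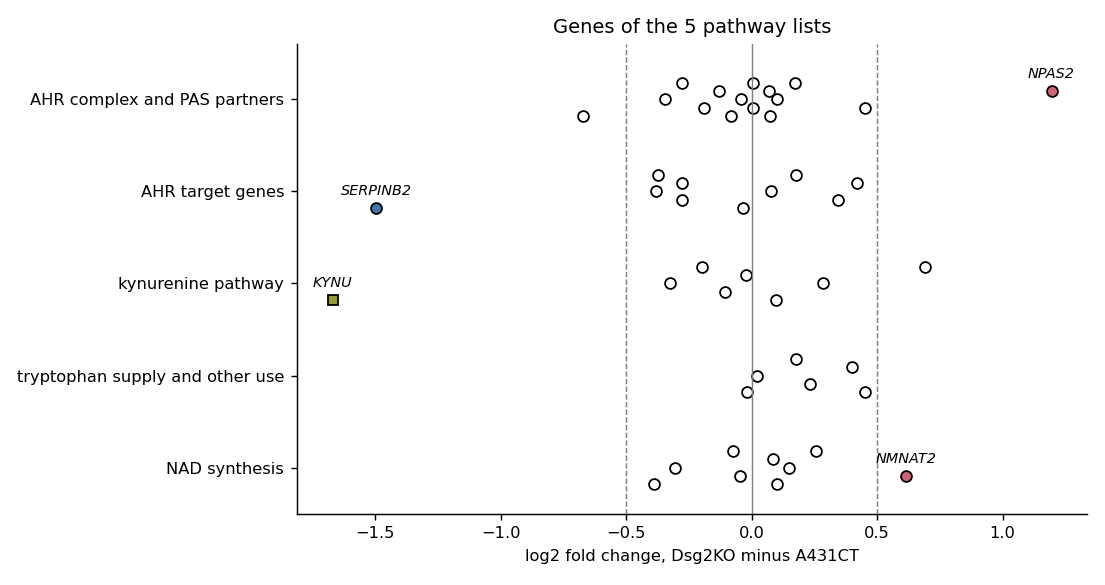
Log2 fold change (Dsg2KO minus A431CT) of every tested gene of the 5 pathway lists, 1 point per gene, with dashed lines at the minimum of 0.5; red and blue points were called higher and lower, open points were not called, and the square is KYNU, which was not tested. The called genes were NPAS2, SERPINB2 and NMNAT2.

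The tested genes whose profile over the 6 libraries was most like that of KYNU were AKR1C2, F2R, MLF1, TENM2 and ULK2. Likeness was the Euclidean distance between log2 CPM centred on each gene's own mean, and the distances were 0.428, 0.444, 0.467, 0.538 and 0.543. F2R, which encodes the thrombin receptor PAR1, was at 18.5, 18.3 and 18.3 CPM in the A431CT libraries, against 6.03, 5.50 and 6.80 CPM in Dsg2KO cells. AKR1C2, an aldo-keto reductase of steroid metabolism, was at 4.01, 5.08 and 4.03 CPM in A431CT and 1.27, 1.77 and 1.48 CPM in Dsg2KO cells, and its reads may be shared with close paralogs. These 5 genes had log2 fold changes between -1.87 and -1.27. They lie on chromosomes 10, 5, 3, 5 and 17 in that order, and the choice by likeness fixes their direction.

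**Figure D5:**
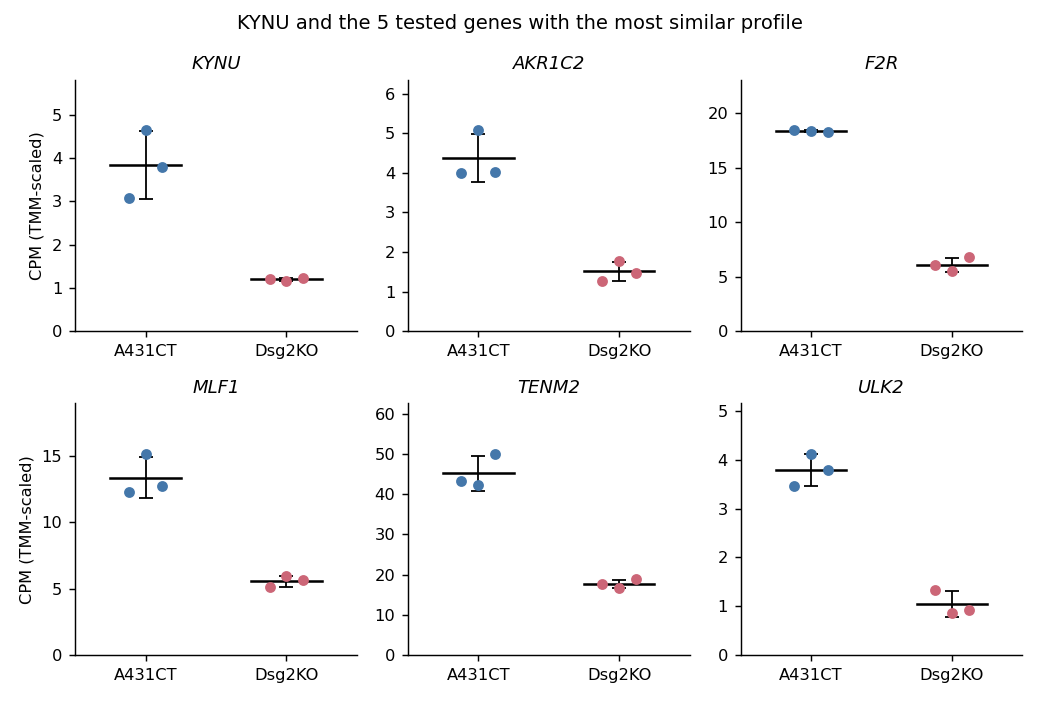
Level of KYNU and of the 5 tested genes with the nearest profile, in TMM-scaled CPM, in each library; lines are means and bars are SD, and each panel has its own axis from 0. In each of the 6 panels the Dsg2KO libraries (red) lay below the A431CT libraries (blue), which the choice of the genes fixes.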

How the data were processed

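Paired-end reads were trimmed by the authors and mapped to GRCh38 with CLC Genomics Workbench. The deposited values are raw counts, whole numbers per gene without normalization. The annotation and the strand setting of the counting are not given in the sources used here. All 6 columns were mapped to a library by the names in the labels. The study calls the replicates biological, and the labels do not say how the cultures were separated, so p-values measure the spread between these libraries.

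R 4.3.3 and edgeR 4.0.16 were used with filterByExpr (minimum count 10, minimum total 15), TMM factors (0.990 to 1.01) and quasi-likelihood fits without covariates over all genes; log2 CPM used a prior count of 2. On simulated counts for A431CT against Dsg2KO with 12767 genes, 99.0% of genes changed by 1 and 100% of genes changed by 2 on the log2 scale were recovered, and 7 unchanged genes were called. The changed genes were drawn only from genes with mean counts above those of KMO and KYNU. Recovery at lower counts was not tested. DESeq2 1.42.0 and the other alternatives are described in the closing section. Replicates differed by more than counting error (chi-square per degree of freedom 2.64 to 4.14). Same-numbered libraries did not deviate together (correlations -0.0027, 0.0135 and 0.0539), so no pairs were used. GENCODE version 44 placed 19463 of 21462 symbols by name and chromosome.

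The members and lists were chosen with earlier results of these data known, and the lists were written from general knowledge. The text names all members, DSG2, the called genes of each pathway list or else its 2 largest changes, enzymes needed to cover a step, genes overlapping a member, and the 5 genes nearest to KYNU. HSP90AA1, HSP90AB1, PTGES3, SIM2, NQO1, SLC7A5, WARS1, NMNAT1, NADK, NADK2, SLC35E2A, GNB1, ACMSD, the aminotransferases, RBMXL1, IL4I1, TPH1 and the row names AHRR_1 and AHRR_2 were named after their values were seen. ARNTL and ARNTL2 stood in for BMAL1 and BMAL2. Some items of these lists are not reported here.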

Additional observations from a re-analysis of the deposited data

How the results depend on the processing

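Without a fold change minimum 3802 of all genes (29.6%) and 2 of the members other than KYNU passed. So did 5 of 15 tested genes of the AHR complex list, 5 of 10 AHR targets, 2 of 6 genes of the tryptophan list and 4 of 9 of the NAD list. SLC7A5 is counted in both the AHR target and the tryptophan list. A minimum of 1 left 250 of all genes and 0 of the NAD list. This follows from the minimum itself. With at least 10 counts in every library or with DESeq2, 0 AHR targets were called. SERPINB2 was not among the genes tested with that filter, and DESeq2 gave it a log2 fold change of -1.51 with an adjusted p-value of 0.0540. Without the low-count filter, and again with DESeq2, 1 gene of the tryptophan list was called, IL4I1, which the main filter left out. Its A431CT counts were at or under the floor, so these calls are no support. With 1 library left out, the AHR complex list gave 1 to 2 called genes (SIM2 was added without A431CT replicate 3), the AHR targets 0 to 1 and the tryptophan list 0 to 2, where SLC16A10 passed at 0.65 without A431CT replicate 3. Signs that turned with 1 library left out were those of AHR (range -0.17 to 0.062), ARNT (-0.035 to 0.047) and KMO (-0.56 to 0.29), none of which was called in any alternative. The log2 fold change of KYNU moved by less than the spread between replicates in each of the 13 alternatives. The replicate block gave 769 genes overall beside 775 and changed none of the members' calls; since the replicate numbers do not pair the libraries, it is given as an alternative only. Otherwise the cause was not tested. Per kb of canonical transcript, an alternative chosen after seeing the data, A431CT levels were 4.643 for AHR, 5.624 for ARNT, 2.196 for CYP1A1, 8.844 for CYP1B1, 20.04 for TIPARP, 0.04142 for IDO1, 13.27 for AFMID, 0.1731 for KMO and 0.2531 for KYNU CPM per kb. At 5 to 63 counts per library, KMO and KYNU are limited by depth.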

Other observations

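Among genes under the low-count filter was HAAO, the dioxygenase after KYNU. It had 1, 1 and 0 counts in A431CT and 2, 6 and 2 counts in Dsg2KO cells. The ratio of summed counts, scaled to library size, was 4.13 (exact binomial 95% interval 0.880 to 38.8, counting error only). All A431CT counts of HAAO lay under the floor, so this ratio describes the counts only. TPH1, which starts the serotonin branch of tryptophan use, had 24 counts in all in A431CT and 31 in Dsg2KO cells, a ratio of 1.07 (0.606 to 1.90). These genes were picked out after their values were seen, and with these few counts they were not among the genes tested in the comparison of the report.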
